A study of Mus musculus with 6 samples.

Results

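The osteoclast acid and protease machinery was taken as 9 genes that carry out bone resorption, Car2, Tcirg1, Atp6v0d2, Clcn7, Ostm1, Slc4a2, Ctsk, Mmp9 and Acp5. They were chosen by name, and like the other gene lists used here, with earlier results of these data known. All 9 were present among the 23170 genes of the authors' deposited table. RNA was sequenced from subchondral bone of the mandibular condyle, the end of the lower jaw that meets the skull at the temporomandibular joint, in wild type mice. Of the libraries, 3 are labelled partial discectomy, in which part of the joint disc is cut away on 1 side, and they were set against 3 labelled sham operation. All 6 carry the age label P6w+PO2w, and bone of the operated joint was used. The sample descriptions end in LPD for partial discectomy and in Rctrl for sham, and the meaning of these letters, which goes with the group, is not explained. No label states that each library is a mouse of its own, so the spread between them may be partly technical. Each description also holds a number, and the number 6 is found in both groups. What it stands for is not explained. Whether a sham library and a partial discectomy library came from the same mouse is therefore unknown, and this was not tested. The values are normalized expression means per group in a unit that the authors' deposited table does not name, with a smallest value of exactly 1, called the floor here. Apart from the highest library of each gene, values of single libraries were not analysed here.

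Osteoclasts are large cells that dissolve bone in a sealed space beneath them. Carbonic anhydrase makes protons and bicarbonate from carbon dioxide and water, a vacuolar proton pump drives the protons across the ruffled border, a chloride-proton exchanger balances the charge, and an anion exchanger on the opposite membrane lets the bicarbonate out. The acid dissolves the mineral, and proteases then cut the exposed collagen. Loss of several of these proteins causes osteopetrosis, a disease of dense bone, in mice and people. Some of the 9 genes are also used by other cells. Car2 is abundant in the red cell lineage, and Mmp9 is stored in neutrophil granules.

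The regions around annotated transcription starts were available for 6 of the 9 genes, from RefSeq on build GRCm38.p6, in 12 windows from 250 bases before to 50 bases after a start. They were searched on both strands for letters that factors of osteoclasts are known to bind. The windows shown are those of 3 genes that held 2 of the searched motifs, one for a protease, one for a phosphatase and one for a transporter. Capitals mark GAGGAA (core of PU.1 sites), TGGAAA (NFAT), CATGTG (an E-box of MITF) and CACGTG (an E-box of the related TFE factors), on either strand. These motifs do not overlap in the windows printed.
Ctsk, chr3:95498960-95499259, plus strand: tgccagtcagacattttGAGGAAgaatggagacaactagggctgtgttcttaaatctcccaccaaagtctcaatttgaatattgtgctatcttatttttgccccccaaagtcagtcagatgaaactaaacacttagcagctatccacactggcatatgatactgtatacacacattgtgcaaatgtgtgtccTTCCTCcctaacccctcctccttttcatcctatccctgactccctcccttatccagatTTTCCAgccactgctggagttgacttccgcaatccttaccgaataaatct
Acp5, chr9:22130549-22130848, minus strand: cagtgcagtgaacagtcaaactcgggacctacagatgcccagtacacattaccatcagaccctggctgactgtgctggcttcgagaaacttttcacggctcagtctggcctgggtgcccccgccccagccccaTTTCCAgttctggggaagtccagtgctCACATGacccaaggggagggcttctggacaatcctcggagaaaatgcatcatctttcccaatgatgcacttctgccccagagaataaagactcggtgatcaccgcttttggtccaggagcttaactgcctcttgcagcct
Clcn7, chr17:25133141-25133440, plus strand: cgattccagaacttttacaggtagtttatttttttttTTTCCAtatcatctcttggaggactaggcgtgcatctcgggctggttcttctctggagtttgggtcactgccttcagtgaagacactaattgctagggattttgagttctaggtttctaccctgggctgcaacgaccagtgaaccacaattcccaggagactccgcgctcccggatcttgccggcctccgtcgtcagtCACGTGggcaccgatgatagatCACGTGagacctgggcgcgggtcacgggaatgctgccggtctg
The Ctsk window held GAGGAA at 2 places and TGGAAA at 1, that of Acp5 held TGGAAA and CATGTG once each, and that of Clcn7 held CACGTG at 2 places and TGGAAA at 1. Over the 32851 windows of all genes, 28.3% held GAGGAA, 21.4% TGGAAA, 14.2% CATGTG and 7.15% CACGTG. Of the 12 windows of these genes, 3 held GAGGAA, 3 TGGAAA, 2 CATGTG and 1 CACGTG. The AP-1 letters TGANTCA were in 0 of the 12 windows and in 7.81% of all windows. A match is a string of letters and not a measured binding site.

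All 9 resorption genes had a higher mean in partial discectomy libraries than in sham libraries, and 1 of them, Car2, passed the authors' test. Calls rest on an adjusted p under 0.05, by which the authors' deposited table had 2.28% of all genes higher and 0.104% lower. The 9 genes had 1 call higher and 0 lower, and an unadjusted p under 0.05 was reached by 4 in the higher direction and 0 in the lower, against 10.9% of all genes higher and 3.31% lower. The median ratio of the means, partial discectomy over sham, was 1.68 for the 9 genes and 1.06 for all genes of the authors' deposited table, on the scale that includes the floor. A ratio above 1 was found for 62.7% of all genes, and for 70.8% of the 10286 genes whose mean lay at least 5 above the floor, as it did for all 9. In bulk bone, a change in the number of osteoclasts cannot be told apart from a change in the RNA each of them holds.

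**Figure D1:**
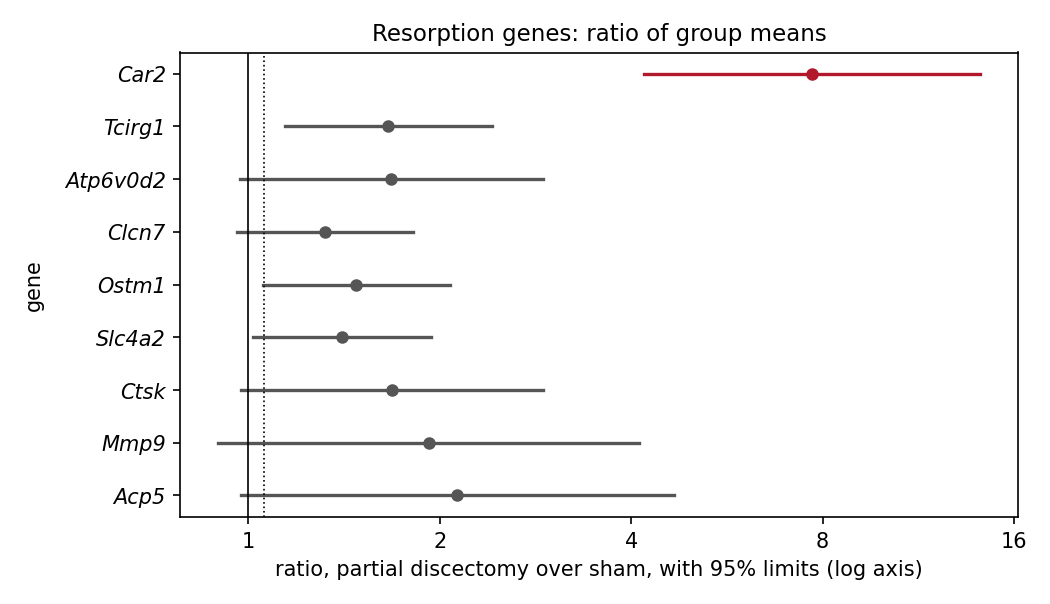
Ratio of group means (partial discectomy over sham, log axis) with the authors' deposited 95% limits for the 9 resorption genes; red marks the gene with an adjusted p under 0.05, the solid line equal means and the dotted line the median ratio of all genes, 1.06. Car2 stands at 7.69, and the other 8 lie between 1.32 and 2.13 with wide limits.

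Limits on single libraries were computed from the group means, the highest of the 6 libraries and the geometric mean over all 6 that the authors' deposited table lists. They hold if these summaries are taken over the same 6 values, and for all 23170 genes the summaries allowed at least 1 such set of values. For all 9 genes the highest library could only have been a partial discectomy library. Over all genes that was so for 44.6%, and for 50.5% of those at least 5 above the floor. Genes whose highest library could lie in either group enter these shares only in the total, and not as partial discectomy. The highest library could be placed in 1 group for 15399 of the 23170 genes, and for 10329 of these that group was partial discectomy. The highest library held between 38.9% and 54.2% of the summed partial discectomy value of its gene, where an even spread would give 33.3%. It need not be the same library from gene to gene. The mean of the other 2 partial discectomy libraries still lay above the sham mean for each of the 9 genes, by 1.18- to 6.41-fold. For 2 genes, Car2 and Slc4a2, every partial discectomy library had to lie above every sham library, against 10.3% of all genes. The reverse order held for 0 of the 9 and for 3.28% of all genes. For the other 7 these summaries do not settle whether the groups overlap.

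**Figure D2:**
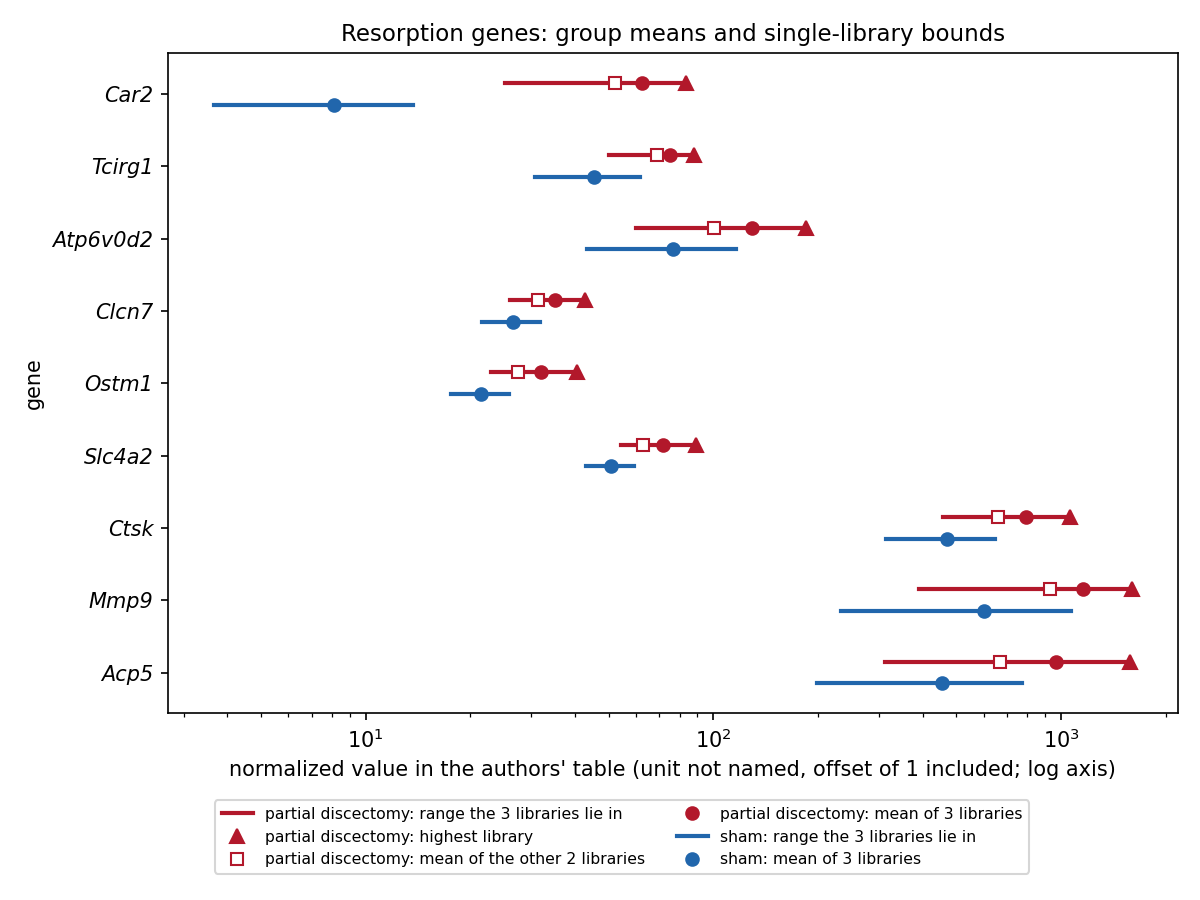
Normalized value (log axis, unit not named, floor included) of the 9 resorption genes: group means of 3 libraries (circles), the highest partial discectomy library (triangle), the mean of the other 2 (square) and lines for the range in which the libraries of a group must lie, with partial discectomy in red above sham in blue. The ranges of a gene were computed one at a time, so those of Slc4a2 cross although its groups cannot overlap; they are apart for Car2, and the triangle of Acp5, at 1574, stands farthest from its square, at 665.

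Car2, carbonic anhydrase II, was the 1 gene of the 9 called higher. Its mean was 62.5 in partial discectomy libraries and 8.13 in sham libraries, a 7.69-fold difference (95% limits 4.18 to 14.1, adjusted p = 0.00937) as listed in the authors' deposited table, whose model is not named. The highest partial discectomy library stood at 83.2 in the authors' deposited table, and the other 2 averaged 52.2. No partial discectomy library could be lower than 25.1, and no sham library could be higher than 13.7. The gene (ENSMUSG00000027562, chromosome 3, 14886273 to 14900770 on mm10, as for all positions given here) lies in a cluster of relatives with unlike ratios. Its neighbour Car1, the red cell form, rose 4.90-fold, to 5.68 in partial discectomy libraries against 1.16 in sham libraries, while Car3, a form of muscle and fat, had a ratio of 1.57 (0.420 to 5.86) and Car13 had 0.912, by the authors' deposited table. The red cell lineage list also had higher means in partial discectomy libraries, as did the neutrophil list below. Whether their genes followed Car2 from library to library cannot be seen from group means. All 12 red cell genes, Car1 and the transporter gene Slc4a1 among them, had ratios above 1, against 62.7% of all genes. Of the 12, 10 were called higher, against 2.28% of all genes. Their group means above the floor summed to 294 in partial discectomy libraries and 15.4 in sham libraries by the authors' deposited table. None of the 12 had a mean at the floor in either group, but some sham means were close to it. Those of Klf1, Car1, Epor and Hba-a2 lay 0.129, 0.159, 0.272 and 0.440 above it, so the size of their ratios depends on the floor. The part of red cell precursors in the Car2 difference was not tested. By distance over the log2 means of both groups, which are only 2 values a gene, the protein-coding genes most like Car2 in the authors' deposited table were Sorl1 (ratio 5.72), Chil3 (12.2) and C3 (4.58).

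The proton pump genes of osteoclasts had ratios close to each other, without a call. Tcirg1 (chromosome 19, 3896050 to 3907133) encodes the a3 subunit, which places the pump at the ruffled border. It averaged 75.2 in partial discectomy libraries and 45.3 in sham libraries, a ratio of 1.66 (1.14 to 2.42, adjusted p = 0.171) as listed in the authors' deposited table. Its partial discectomy libraries had to lie between 50.2 and the highest at 87.8, and its sham libraries between 30.8 and 61.5, so the groups may overlap. Atp6v0d2 (chromosome 4, 19876841 to 19922605) encodes the d2 subunit, which is also needed for osteoclast fusion. Its means in the authors' deposited table were 129 in partial discectomy libraries and 76.7 in sham libraries, a ratio of 1.68 (0.971 to 2.91, adjusted p = 0.386). Its highest library stood at 185 in the authors' deposited table, 1.84 times the mean of the other 2 partial discectomy libraries, 101. The forms of both subunits that other tissues use had smaller ratios. For the a subunit, Atp6v0a1 had 1.10 (0.828 to 1.47), Atp6v0a2 had 1.06 (0.783 to 1.44) and Atp6v0a4, which is close to the floor, had 1.07 in the authors' deposited table. The d1 form, Atp6v0d1, had a ratio of 1.15 (0.771 to 1.71) as listed in the authors' deposited table, and one of 0.948 without its highest library. The same step lowered the ratio of Atp6v0d2 to 1.31 and that of Tcirg1 to 1.52. The differences between these ratios were not tested, and their limits overlap those of Tcirg1 and Atp6v0d2.

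Of 25 pump subunits and accessory proteins, 22 were in the authors' deposited table, and 21 of these had a ratio above 1. A ratio above 1 was found for 62.7% of all genes, and for 70.8% of those at least 5 above the floor. None of the 22 was called, while 7 higher and 1 lower had an unadjusted p under 0.05, against 10.9% and 3.31% of all genes. Without Tcirg1 and Atp6v0d2 the median ratio of the remaining 20 was 1.29, beside 1.06 for all genes. Those with the highest and the lowest ratio were Atp6v1g1 of the catalytic sector (1.72, 1.07 to 2.77, adjusted p = 0.339) and Atp6v0e2 of the membrane sector (0.769, 0.601 to 0.984, adjusted p = 0.325) as listed in the authors' deposited table. Atp6v0e2 was close to the floor, with means of 1.62 in partial discectomy libraries and 2.10 in sham libraries. The subunit with the highest mean, not set per length, was the ring subunit gene Atp6v0c, which averaged 170 in partial discectomy libraries and 103 in sham libraries, a ratio of 1.65 (1.08 to 2.53), as listed in the authors' deposited table.

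**Figure D3:**
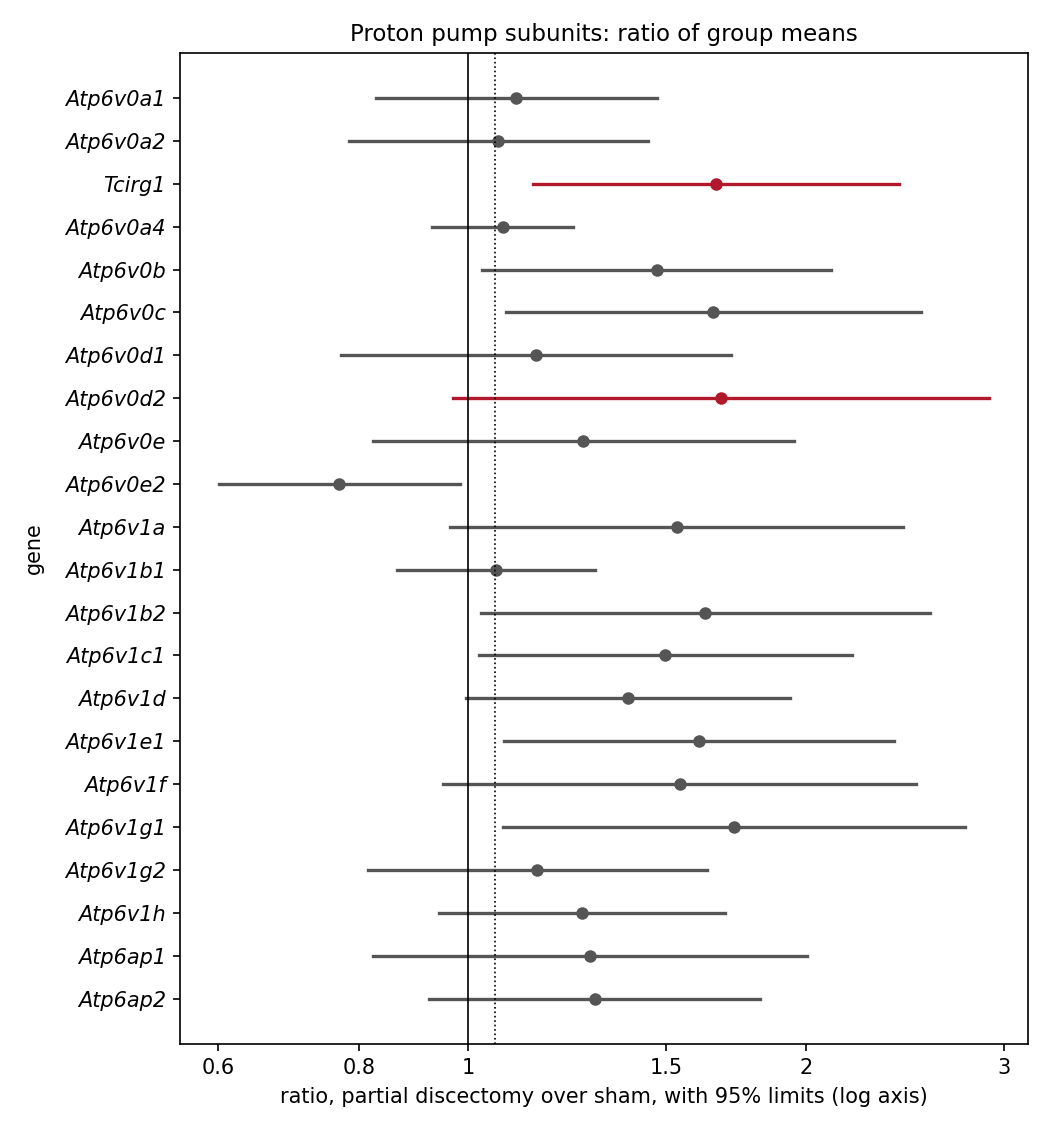
Ratio of group means (partial discectomy over sham, log axis) with the authors' deposited 95% limits for 22 proton pump genes; red marks Tcirg1 and Atp6v0d2, the solid line equal means and the dotted line the median of all genes. The osteoclast forms, at 1.66 and 1.68, lie to the right of Atp6v0a1, Atp6v0a2 and Atp6v0d1, with limits that overlap. Other subunits stand beside them, such as Atp6v1g1 at 1.72 and Atp6v0c at 1.65, while the median of the 20 genes other than Tcirg1 and Atp6v0d2 is 1.29.

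The chloride and bicarbonate transporters had the smallest ratios of the 9 and the narrowest limits. Clcn7, the chloride-proton exchanger (chromosome 17, 25133391 to 25162104), averaged 35.1 in partial discectomy libraries and 26.6 in sham libraries, a ratio of 1.32 (0.961 to 1.82, adjusted p = 0.435) as listed in the authors' deposited table. Ostm1, which encodes the partner protein that Clcn7 needs for its stability (chromosome 10, 42583822 to 42702459), had means of 31.9 in partial discectomy libraries and 21.5 in sham libraries, a ratio of 1.48 (1.06 to 2.08, adjusted p = 0.291), as listed in the authors' deposited table. The lowest partial discectomy library of Ostm1 could not be under 23.0 and the highest sham library not over 25.8, so any overlap of the groups would lie between these values. Slc4a2, the bicarbonate exchanger (chromosome 5, 24423837 to 24440950), averaged 71.4 in partial discectomy libraries and 50.9 in sham libraries in the authors' deposited table, a ratio of 1.40 (1.02 to 1.94, adjusted p = 0.338). Taken alone, its lowest partial discectomy library could be as low as 54.2 and its highest sham library as high as 59.0, but no set of 6 values with the listed geometric mean lets the groups overlap. This rests on a narrow margin, since the listed geometric mean is only 0.00593% above the highest one that would allow an overlap, against 48.7% for Car2, so the groups of Slc4a2 may almost touch. Its adjusted p missed the threshold. Annotated genes on the opposite strand overlap Slc4a2 (Fastk and an snRNA), Ostm1 (an antisense RNA) and Acp5 (a noncoding transcript), and whether strand was used in counting is not given in the sources used here.

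Relatives of the transporters had ratios on both sides of equal means. Among all genes, 62.7% had a ratio above 1 and 2.28% were called higher. At an unadjusted p under 0.05, 10.9% of all genes were higher and 3.31% lower. In the exchanger family of Clcn7, 7 of 8 genes had a ratio above 1 and none was called, with 0 higher and 1 lower at an unadjusted p under 0.05. Its nearest value was that of Clcn3, an exchanger of endosomes chosen here after its value was seen, with a ratio of 1.31 (0.973 to 1.77), while Clcn4, the gene with the highest mean, had 1.05 in the authors' deposited table. In the bicarbonate transporter family 3 of 8 genes had a ratio above 1. The 1 gene called there was Slc4a1, the anion exchanger of red cells, which averaged 102 in partial discectomy libraries and 5.66 in sham libraries, an 18.0-fold difference (6.13 to 53.0, adjusted p = 0.0133) as listed in the authors' deposited table.

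The secreted enzymes had wider limits than the chloride and bicarbonate transporters, and none was called. Ctsk, the cysteine protease that cuts bone collagen in acid (chromosome 3, 95499256 to 95509362), averaged 791 in partial discectomy libraries and 470.3 in sham libraries, a ratio of 1.68 (0.974 to 2.91, adjusted p = 0.399) as listed in the authors' deposited table. Its partial discectomy libraries had to lie between 458 and the highest at 1059, and its sham libraries between 314 and 647. Mmp9, gelatinase B (chromosome 2, 164940780 to 164955850), averaged 1152 in partial discectomy libraries and 599.9 in sham libraries in the authors' deposited table, a ratio of 1.92 (0.898 to 4.11, adjusted p = 0.368). Its lowest partial discectomy library could be as low as 389.5 and its highest sham library as high as 1068. Acp5, tartrate-resistant acid phosphatase (chromosome 9, 22126727 to 22135711), averaged 968 in partial discectomy libraries and 454 in sham libraries, a ratio of 2.13 (0.974 to 4.66, adjusted p = 0.370) as listed in the authors' deposited table. Its highest library, at 1574 in the authors' deposited table, held 54.2% of the partial discectomy sum, and the other 2 averaged 665, or 1.46 times the sham mean. Of the 9 genes, Acp5 had the largest gap between its highest library and the others, 2.37-fold. Unadjusted p-values of Ctsk, Mmp9, Acp5, Atp6v0d2 and Clcn7 lay between 0.0569 and 0.0878 in the authors' deposited table.

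Markers of other cells had unlike ratios. The shares over all genes were 62.7% with a ratio above 1, 2.28% called higher and 0.104% called lower. At an unadjusted p under 0.05 they were 10.9% higher and 3.31% lower. All 12 neutrophil genes had ratios above 1 and 10 were called higher, and their group means above the floor summed to 1446 in partial discectomy libraries and 108 in sham libraries by the authors' deposited table. None was at the floor, but the sham mean of Ly6g lay only 0.306 above it. Ngp, the granule gene with the highest mean of them, was called at 12.8-fold (5.93 to 27.6), as listed in the authors' deposited table. Its highest library, a partial discectomy one, stood at 628 and the other 2 averaged 303, with a ratio of 9.42 without the highest. By the same step the ratio of Mmp8, also of this list, fell from 16.7 to 8.51. The part of the neutrophil genes in the Mmp9 ratio was not tested. Of 11 macrophage genes 5 had ratios above 1 and none was called, with 2 higher and 1 lower at an unadjusted p under 0.05, and their group means above the floor summed to 392 in partial discectomy libraries and 329.6 in sham libraries by the authors' deposited table. The higher sum rests on Csf1r, without which the other 10 summed to 235 in partial discectomy libraries and 243 in sham libraries. Among them, Cd68 of lysosomes had a ratio of 1.51 (0.910 to 2.50) and Csf1r, the M-CSF receptor that osteoclasts share, 1.80 (1.04 to 3.14, adjusted p = 0.339) as listed in the authors' deposited table. Bone-forming cells were represented by all 10 of their markers, none at the floor and none called in either direction. Of the 10, 9 had a ratio above 1, with 0 past an unadjusted p under 0.05 and a median ratio of 1.58, beside 1.68 for the 9 resorption genes. The osteocyte genes Mepe and Dmp1, chosen after their values were seen, had the highest ratios, 2.36 (0.972 to 5.72) and 1.81 (0.768 to 4.28), as listed in the authors' deposited table, and that of Mepe was 1.44 without its highest library. Col1a1, the main collagen of bone and the gene of the list with the highest mean, had limits of 0.134 to 11.3 around a ratio of 1.23 by the authors' deposited table. The genes nearest to Mmp9 by both log2 means were Acp5, Col11a1 (ratio 1.20) and Mmp13 (1.74) as listed in the authors' deposited table.

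Of the protease and phosphatase relatives 4 were called, and 2 of these, Ctsg and Mmp8, are genes of neutrophil granules. Among all genes, 2.28% were called higher and 62.7% had a ratio above 1. Of 16 cathepsins and related proteases 14 had a ratio above 1, and the 2 called were the aspartic protease Ctse (11.2-fold, 5.34 to 23.6), which averaged 20.0 in partial discectomy libraries and 1.78 in sham libraries, and Ctsg of neutrophil granules (3.50-fold, 1.82 to 6.73) as listed in the authors' deposited table. Ctsb, a lysosomal protease of most cells, had means of 328 in partial discectomy libraries and 326 in sham libraries in the authors' deposited table. Ctss, a related protease of antigen-presenting cells that also lies on chromosome 3, had a ratio of 1.39 (1.04 to 1.85, adjusted p = 0.278) as listed in the authors' deposited table. Of 11 metalloproteinases and inhibitors 4 had a ratio above 1, and the 1 called was Mmp8, the neutrophil collagenase, which is also in the neutrophil list (16.7-fold, 7.71 to 36.3, adjusted p = 0.00954), as listed in the authors' deposited table. Its highest partial discectomy library stood at 161, and the other 2 averaged 41.3, or 8.51 times the sham mean of 4.85. Mmp13, a collagenase of hypertrophic chondrocytes and osteoblasts, averaged 1492 in partial discectomy libraries and 859 in sham libraries (ratio 1.74, 0.912 to 3.31) as listed in the authors' deposited table. Of 5 acid phosphatases the 1 called was Acpp, prostatic acid phosphatase, at 4.31 in partial discectomy libraries and 1.39 in sham libraries, 3.11-fold (2.27 to 4.25, adjusted p = 0.00937) as listed in the authors' deposited table.

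At the ruffled border and sealing zone, where the acid and enzymes are released, 13 of 18 genes, or 72.2%, had a ratio above 1. This was so for 62.7% of all genes and for 70.8% of those at least 5 above the floor. Syt7 of this list lay nearer the floor. Of the 18, 2 were called higher, against 2.28% of all genes, and the median ratio was 1.31. At an unadjusted p under 0.05, 6 were higher and 1 lower, against 10.9% and 3.31% of all genes. Itgb3 is in this list and in that of osteoclast differentiation. Those called were Rab27a, a GTPase of vesicle docking (3.48-fold, 2.18 to 5.55, adjusted p = 0.0160), and Fermt3, an integrin activator of blood cells (2.85-fold, 2.04 to 3.99, adjusted p = 0.0104), as listed in the authors' deposited table. Itgav, which encodes an integrin chain and had the highest mean of that list, averaged 326 in partial discectomy libraries and 263 in sham libraries (ratio 1.24) as listed in the authors' deposited table. Of 10 differentiation markers 9 had a ratio above 1, none was called, and 7 were higher and 0 lower at an unadjusted p under 0.05, with a median ratio of 1.70. Calcr, the calcitonin receptor, averaged 15.4 in partial discectomy libraries and 6.03 in sham libraries, a ratio of 2.54 (1.44 to 4.48, adjusted p = 0.0959), as listed in the authors' deposited table. Itgb3, the partner chain of Itgav, had a ratio of 1.77 (0.996 to 3.13), and Dcstamp, a fusion protein, one of 1.70 (1.05 to 2.74) as listed in the authors' deposited table. Nfatc1, the transcription factor that directs the lineage, averaged 150.3 in partial discectomy libraries and 126 in sham libraries, a ratio of 1.20 (0.811 to 1.77, adjusted p = 0.718), as listed in the authors' deposited table. None of the 10 markers had a mean at the floor.

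**Figure D4:**
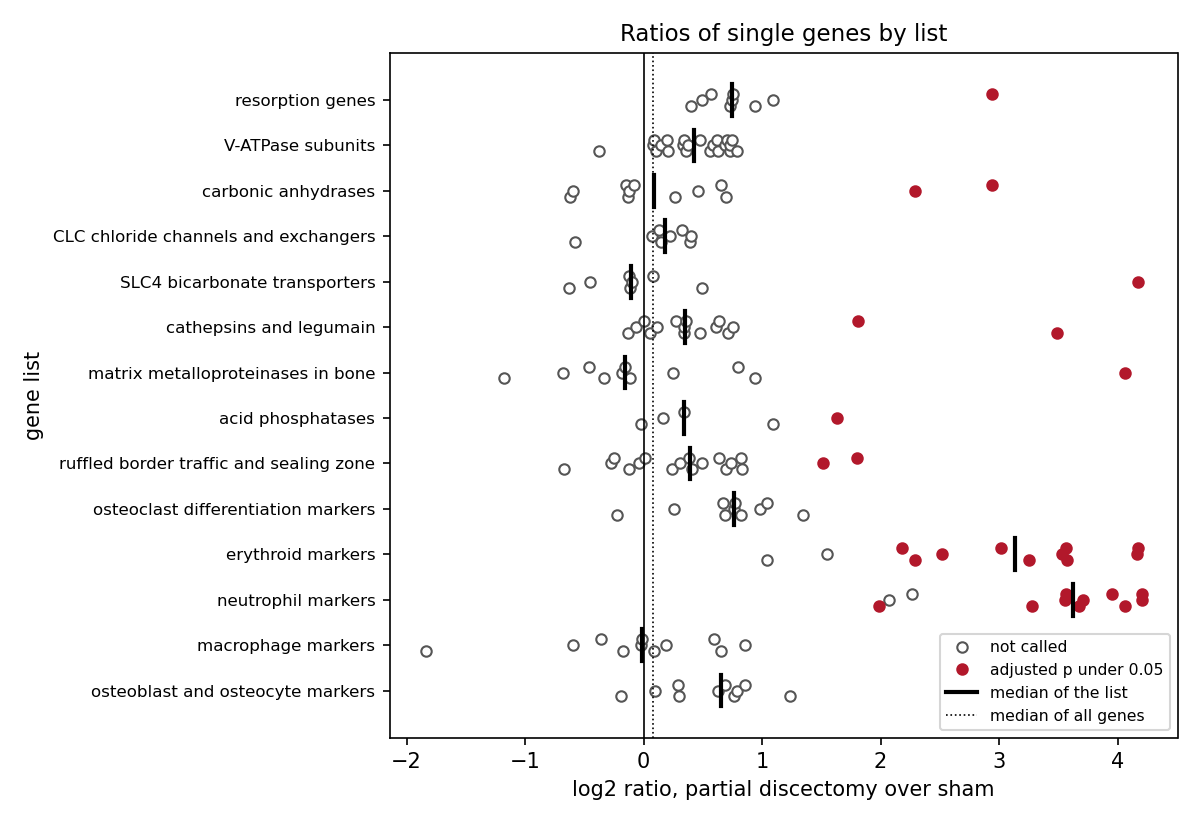
Log2 ratio (partial discectomy over sham) of every gene in the 14 lists; filled red points have an adjusted p under 0.05, black bars are list medians, the solid line marks equal means and the dotted line the median of all genes. The resorption genes lie between 0.40 and 1.09 apart from Car2 at 2.94, while the erythroid and neutrophil lists have medians of 3.13 and 3.62.

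For the smaller differences the choice of centre mattered. Equal means lay below the deposited 95% limits of 4 of the 9 genes, Car2, Tcirg1, Ostm1 and Slc4a2, against 11.1% of all genes. The limits of 2 genes, Car2 and Tcirg1, lay above the median ratio of all genes, against 8.11% of all genes. The same count of 2 was found against the ratio of the summed group means, 1.10, where 6.71% of all genes lay above. All 9 genes had a ratio above both of these centres.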

How the data were processed

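RNA-seq of 6 libraries, 3 partial discectomy and 3 sham, was analysed from 1 table of the authors. Groups follow the sample titles. STAR 2.6.1d and mm10 are named per the submitters' processing notes; not given in the sources used here are the counter, strand setting, gene filter, normalization and statistical model, and depth is unknown. Per the file headers and values, the deposited group means, maximum and geometric mean are a normalized signal with a smallest value of 1, the deposited ratio is partial discectomy over sham, its log2 is a second column, the deposited p-value comes with a step-up adjustment, and the deposited signed fold change and limits were entered as a score and turned into ratios. The adjusted p equalled the Benjamini-Hochberg adjustment over all 23170 genes. A second file held gene positions only.

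No fit of single libraries was possible. Bounds on single libraries follow from group totals, the maximum and the product of the 6 values; the summaries of all 23170 genes allowed at least 1 placement of the highest library, and the step was tested on simulated data. Coordinates are those of the table, which matched GENCODE M21 starts and ends for the 9 genes. Python 3.11.15, pandas 2.3.3 and statsmodels 0.14.6 were used. The 9 genes and the 14 lists were chosen with earlier results of these data known. Named genes are the 9 members, called genes of the family and pathway lists (blood cell lists are given as counts), the highest mean of each list, 9 further genes of the same pathways named with the lists, and the 3 nearest genes to Car2 and to Mmp9; relatives named for their value or position (Car13, Clcn3, Ctss, Ctsb, Atp6v1g1, Atp6v0e2 and the tissue inhibitors) were chosen after their values were seen. Alternatives were other gene filters, call rules, centres, removal of the floor and removal of the highest library, also for the other named genes, and of Csf1r from the macrophage sum, both chosen after seeing the data.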

Additional observations from a re-analysis of the deposited data

How the results depend on the processing

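No paired analysis was possible because the table holds group means and no values per library, and for the same reason no replicate could be left out in turn. An unadjusted p under 0.05 gave 4 members higher, and by the deposited 95% limits 4, in place of 1; members called lower stayed at 0 under every call rule and filter tried. Readjusted over genes at least 5 above the floor, all genes had 233 calls higher and 10 lower in place of 528 and 24, Car2 remained called, and the other 8 members were not called; that filter leaves out Car1 and Acpp. The members' median log2 ratio was 0.75, and it was 0.62 relative to the ratio of the summed group means and 0.48 with the highest library left out and the floor removed. Each of the 9 log2 ratios stayed above 0 and within its own deposited limits under those steps, with Acp5 at 0.55 and Car2 at 2.84 without the highest library. Depth is unknown, so no detection limit is given.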

Other observations

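All 4 tissue inhibitors of metalloproteinases in the list had ratios under 1, and none was called; that of Timp4, close to the floor, was 0.898 and became 1.14 without its highest library, a sham one. Timp3, an inhibitor bound to the matrix, averaged 256 in partial discectomy libraries and 579 in sham libraries, a ratio of 0.442 (95% limits 0.264 to 0.743, adjusted p = 0.1004) as listed in the authors' deposited table. It was not called, and all its sham libraries had to lie above all its partial discectomy libraries, as was so for 3.28% of all genes. Timp2 had a ratio of 0.624 (0.321 to 1.21), and Mmp2 and Mmp14, gelatinase A and a membrane-bound protease of stromal cells, had 0.725 and 0.793 in the authors' deposited table. None of these was called, and they were chosen after their values were seen.

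Vsig4, a receptor of resident macrophages, averaged 1.18 in partial discectomy libraries and 4.22 in sham libraries, a ratio of 0.280 (0.141 to 0.555, adjusted p = 0.118), as listed in the authors' deposited table. Its partial discectomy mean lay only 0.180 above the floor, so the size of the ratio depends on the floor. The highest library, at 7.67, had to be a sham library, and without it the sham mean was 2.49 and the ratio 0.473. Vsig4 was not called and was chosen after its value was seen.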
